A study of Mus musculus with 12 samples.

Results

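The levels described here are those of 4 genes of metal handling in mouse hippocampal tissue: the metallothionein genes Mt1, Mt2 and Mt3, and Slc30a1, which encodes a zinc exporter of the plasma membrane. They were chosen by symbol, for what they are known to do, from 27978 genes with a value in the deposited table, and all 4 were among the 12559 genes tested. RNA-seq was done on total RNA of hippocampal tissue from mice after fecal microbiota transplantation, in 3 groups of 4 libraries: FMT-CON, FMT-DSS, and a group titled FMT-SP. The series describes this last group as FMT-DSS+SP, and SP is the neuropeptide substance P by its title. All 3 groups received a transplant, and the samples analysed here hold no mice without one. Strain, age and sex of the mice, what CON and DSS stand for, and when and to which animals substance P was given are not stated in the sources used. Nor do the labels say whether each library came from a separate animal, so p-values measure only the spread between these libraries. Levels are in FPKM, the number of fragments divided by transcript length in kilobases and by the library's mapped fragments in units of 1000000, a scale per length on which genes can be compared.

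Metallothioneins are small proteins rich in cysteine that hold zinc and copper ions. Free zinc activates the transcription factor MTF-1, which binds metal response elements in the promoters of Mt1, Mt2 and Slc30a1, so that zinc is bound and exported when it is in excess. Mt1 and Mt2 are also known to be induced by glucocorticoids and by interleukin-6 signalling through STAT3, and in brain they are made mostly by astrocytes. Mt3 is the neural member, found in neurons and astrocytes, and responds little to metals. Mt4, the remaining member of the mouse cluster, belongs to stratified epithelia.

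Mt1, Mt2, Mt3 and Mt4 lie side by side on the plus strand of chromosome 8 in the GRCm38 assembly (GENCODE vM21), within 43131 bases. Mt4 (ENSMUSG00000031757.7) spans 94137197 to 94139031, Mt3 (ENSMUSG00000031760.9) 94152607 to 94154146, Mt2 (ENSMUSG00000031762.7) 94172664 to 94173568, and Mt1 (ENSMUSG00000031765.8) 94179082 to 94180327. Mt2 and Mt1 are the closest neighbours, 5513 bases apart, while 18517 bases separate Mt3 from Mt2. Slc30a1 (ENSMUSG00000037434.7) lies on chromosome 1, from 191906767 to 191913247 on the plus strand. Each metallothionein gene has 3 exons and Slc30a1 has 2.

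The start regions of the 4 genes are shown because the metal response core occurs in them in different numbers. Each is 300 bases of RefSeq sequence (GRCm38.p6, plus strand), from 250 bases before the annotated start to 50 after it, at chr8:94178839-94179138 for Mt1, chr8:94172368-94172667 for Mt2, chr8:94152357-94152656 for Mt3 and chr1:191906531-191906830 for Slc30a1. Capitals mark matches to the core TGCGCNC or TGCACNC on either strand.
Mt1: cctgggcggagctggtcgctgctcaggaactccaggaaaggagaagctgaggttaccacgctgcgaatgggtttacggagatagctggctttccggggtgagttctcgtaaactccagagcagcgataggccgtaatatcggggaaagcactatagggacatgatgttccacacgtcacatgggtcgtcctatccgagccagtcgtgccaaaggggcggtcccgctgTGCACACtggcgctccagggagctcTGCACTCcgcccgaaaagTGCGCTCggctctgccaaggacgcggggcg
Mt2: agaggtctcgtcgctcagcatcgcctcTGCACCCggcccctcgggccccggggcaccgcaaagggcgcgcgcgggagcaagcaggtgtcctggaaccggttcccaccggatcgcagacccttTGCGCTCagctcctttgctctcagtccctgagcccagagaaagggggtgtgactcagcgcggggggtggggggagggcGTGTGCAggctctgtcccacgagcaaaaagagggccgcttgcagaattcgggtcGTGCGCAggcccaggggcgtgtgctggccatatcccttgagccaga
Mt3: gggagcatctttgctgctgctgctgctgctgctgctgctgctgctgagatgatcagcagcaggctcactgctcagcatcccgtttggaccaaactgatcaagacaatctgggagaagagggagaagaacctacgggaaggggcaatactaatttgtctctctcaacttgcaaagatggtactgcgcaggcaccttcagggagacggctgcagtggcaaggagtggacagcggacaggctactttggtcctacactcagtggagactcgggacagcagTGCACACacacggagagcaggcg
Slc30a1: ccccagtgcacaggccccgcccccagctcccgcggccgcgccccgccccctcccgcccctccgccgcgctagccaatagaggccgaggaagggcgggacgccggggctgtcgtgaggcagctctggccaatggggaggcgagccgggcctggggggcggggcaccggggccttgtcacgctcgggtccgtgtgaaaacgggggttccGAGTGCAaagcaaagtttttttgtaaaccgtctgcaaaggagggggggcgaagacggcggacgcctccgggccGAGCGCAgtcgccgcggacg
The window of Mt2 held 4 matches, that of Mt1 3, that of Slc30a1 2 and that of Mt3 1. Of 32817 annotated start windows of the same length, 25.7% held at least 1 match, 7.12% at least 2, 1.97% at least 3 and 0.518% at least 4. Other short motifs were searched in the same windows on both strands. The short motif AGAACA of the glucocorticoid receptor and the STAT motif TTCNNNGAA had 0 matches in all 4 windows, against 19.0% and 8.29% of all windows with at least 1. The antioxidant motif TGACNNNGC had 1 match each in Mt2 and Slc30a1 and is in 12.4% of windows. The GC box GGGCGG had 3 matches in Mt1 and 5 in Slc30a1 and is in 35.6% of windows. The annotated starts of the 3 metallothionein genes lie upstream of a TATAAA, which begins at base 129 of the Mt1 transcript, base 90 of Mt2 and base 107 of Mt3. The windows of these 3 genes end before that TATAAA. If the start in use lies downstream of it, their match counts are for sequence further upstream and miss the bases next to that start. The first 200 bases of the GENCODE transcripts, which overlap the ends of the windows, held 4 core matches in Mt1, 3 in Mt2, 3 in Mt3 and 1 in Slc30a1, and some of these are matches already counted in the windows. A match is a run of letters, not a measured site, and its absence from a window says nothing of the factor.

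Mt3 was the highest of the 4 genes. Its level lay between 481.7 and 694.0 FPKM, which put it between the 28th and 49th place from the top among all genes of a library. Mt2 lay between 189.0 and 643.3 FPKM and Mt1 between 154.2 and 472.4 FPKM. Mt3 was above Mt1 in 12 of 12 libraries and above Mt2 in 11 of 12, the exception being FMT-DSS 2, and Mt2 was above Mt1 in 12 of 12. Slc30a1 lay between 3.17 and 8.81 FPKM, far below the metallothioneins in 12 of 12 libraries. Mt4 was listed at 0 in 8 of the 12 libraries and reached at most 0.278 FPKM in the others, or about 4 fragments.

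In FMT-CON, Mt1 was at 252.0, 168.8, 259.0 and 311.3 FPKM in libraries 1 to 4. In FMT-DSS it was at 207.4, 419.6, 224.3 and 472.4 FPKM. In FMT-SP it was at 233.9, 175.1, 154.2 and 301.0 FPKM. FMT-DSS 2 and FMT-DSS 4 were the highest of the 12 libraries, while FMT-DSS 1 and FMT-DSS 3 lay inside the range of both other groups, so the groups overlapped. Group means were 247.8 ± 58.9 FPKM in FMT-CON, 330.9 ± 134.8 in FMT-DSS and 216.0 ± 65.9 in FMT-SP (SD, n = 4 each).

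Mt2 gave the same picture. It was at 328.2, 193.4, 379.3 and 425.6 FPKM in FMT-CON 1 to 4. In FMT-DSS 1 to 4 it was at 241.8, 643.3, 302.3 and 601.7 FPKM. In FMT-SP 1 to 4 it was at 317.5, 215.4, 189.0 and 455.3 FPKM. The 2 highest values were again those of FMT-DSS 2 and FMT-DSS 4, and the other FMT-DSS libraries lay among the FMT-CON values. Means were 331.6 ± 100.3, 447.3 ± 204.5 and 294.3 ± 120.8 FPKM (SD, n = 4 each).

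Mt3 varied least. It was at 520.6, 544.0, 631.4 and 694.0 FPKM in FMT-CON 1 to 4. In FMT-DSS 1 to 4 it was at 481.7, 538.4, 584.7 and 629.9 FPKM. In FMT-SP 1 to 4 it was at 542.0, 491.5, 558.3 and 667.3 FPKM. Neither FMT-DSS 2 nor FMT-DSS 4 stood out in Mt3, and the 3 groups overlapped over most of their range. Its coefficient of variation over the 12 libraries was 11.9%, against 37.1% for Mt1, 42.2% for Mt2 and 26.5% for Slc30a1.

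Slc30a1 was at 5.89, 5.48, 5.39 and 3.17 FPKM in FMT-CON 1 to 4. In FMT-DSS 1 to 4 it was at 5.48, 8.81, 5.29 and 3.76 FPKM. In FMT-SP 1 to 4 it was at 5.96, 5.89, 5.08 and 4.02 FPKM. FMT-DSS 2 was the highest library, as for Mt2, but FMT-DSS 4, which was high in Mt1 and Mt2, was the lowest FMT-DSS library here. Means were 4.98 ± 1.23, 5.84 ± 2.13 and 5.24 ± 0.903 FPKM (SD, n = 4 each).

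**Figure D1:**
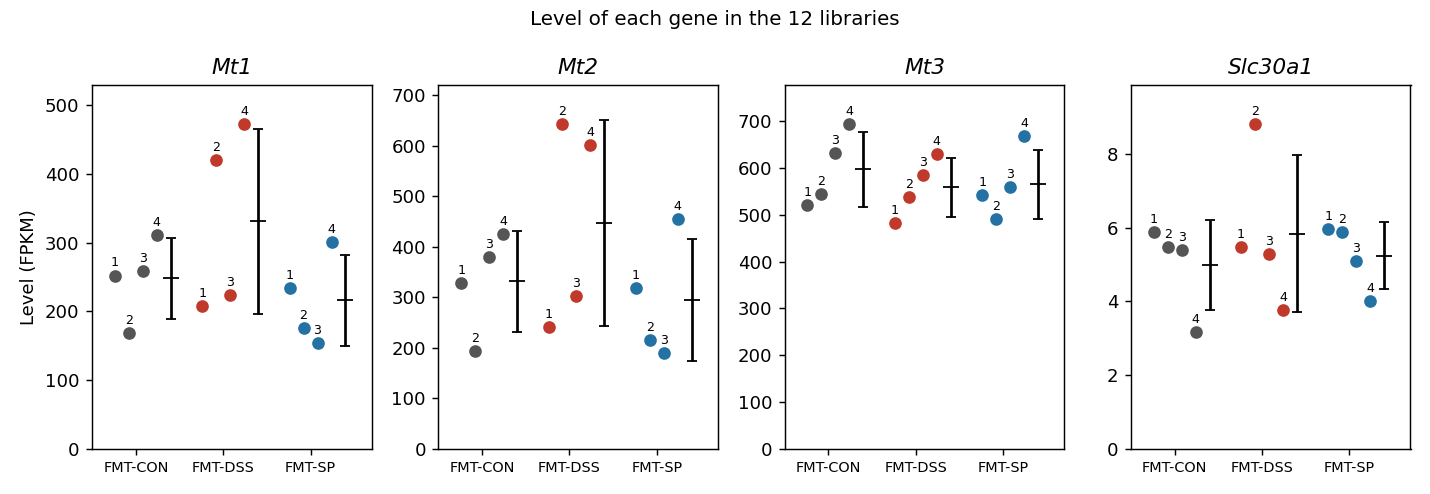
Level of Mt1, Mt2, Mt3 and Slc30a1 in FPKM (vertical axes, linear from 0) in each library, with points numbered by library and bars giving the group mean ± SD (n = 4). In Mt1 and Mt2 the points of FMT-DSS 2 and FMT-DSS 4 lie above the other 10 libraries, and in Slc30a1 the library numbered 4 is the lowest of each group.

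The comparison of FMT-DSS with FMT-CON asks how the hippocampus differed between recipients of the 2 kinds of transplant. Mt1 and Mt2 had higher means in FMT-DSS, by 0.36 ± 0.30 and 0.37 ± 0.37 (SE) on the log2(FPKM + 1) scale, and Mt3 and Slc30a1 differed by -0.09 ± 0.13 and 0.17 ± 0.22. The 4 differences were within the spread between libraries. By limma's test with Benjamini-Hochberg adjustment over 12559 genes, the adjusted p was 0.971 for Mt1, 0.978 for Mt2, 0.979 for Mt3 and 0.978 for Slc30a1. Exact two-sided permutation tests gave p = 0.343, 0.457, 0.457 and 0.543, where the smallest p that 4 against 4 allows is 0.0286. The 95% intervals ran from -0.29 to 0.996 for Mt1, from -0.43 to 1.16 for Mt2, from -0.37 to 0.18 for Mt3 and from -0.30 to 0.64 for Slc30a1, so an increase of up to about 2-fold in Mt1 lies within its interval.

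The Mt1 and Mt2 differences rested on the pair of high libraries. With FMT-DSS 2 and FMT-DSS 4 both left out, the difference of Mt1 was -0.17 and that of Mt2 -0.23. These libraries were picked as the highest, so their removal lowers both differences by construction. Leaving out only one of them gave 0.21 (without FMT-DSS 2) and 0.15 (without FMT-DSS 4) for Mt1, and 0.15 and 0.18 for Mt2. Leaving out the lowest FMT-CON library, FMT-CON 2, gave 0.18 for Mt1 and 0.13 for Mt2, while leaving out FMT-DSS 1, the lowest of its group, gave 0.55 and 0.62. For Slc30a1, whose highest value was that of FMT-DSS 2, the difference without that library was -0.02.

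FMT-SP against FMT-DSS asks what changed when substance P was part of the treatment, and it uses the same FMT-DSS libraries as the comparison before it, so that a high FMT-DSS library enters both. Mt1 was lower in FMT-SP by 0.57 ± 0.30 (SE; a change of -0.57, 95% interval -1.21 to 0.07) and Mt2 by 0.56 ± 0.37 (a change of -0.56, interval -1.36 to 0.23). Mt3 differed by 0.01 ± 0.13 (interval -0.26 to 0.29) and Slc30a1 by -0.09 ± 0.22 (interval -0.57 to 0.38). The adjusted p by limma was 0.999 for each of the 4 genes, and the unadjusted p was 0.0777 for Mt1 and 0.148 for Mt2. Nothing in the labels pairs the libraries. By a check described with the methods, the library numbers met a threshold for pairing in these 2 groups. The check cannot show pairing. The shared shift of the libraries numbered 4 moves their group means, which can raise the r of the other numbers. The replicate block was fitted to all 12 libraries, FMT-CON included. With it the unadjusted p of Mt1 by limma was 0.0395 and its adjusted p 0.672. A block within these 2 groups alone was not fitted. With the choroid plexus mean as a covariate the unadjusted p of Mt1 was 0.0345, and with the mitochondrial share 0.0472 (adjusted p 0.786 and 0.850 by limma). Exact permutation p-values were 0.200 for Mt1, 0.229 for Mt2, 0.886 for Mt3 and 0.80 for Slc30a1. All 4 FMT-SP libraries lay below the FMT-DSS median of Mt1, yet FMT-SP 1 and FMT-SP 4 lay above FMT-DSS 1 and FMT-DSS 3. With both of the high FMT-DSS libraries left out, the change was -0.05 for Mt1 and 0.035 for Mt2. Leaving out only FMT-DSS 4 gave -0.37 for Mt1, and leaving out only FMT-DSS 2 gave -0.35 for Mt2. Without FMT-SP 4, the highest of its group, it was -0.74 for Mt1 and -0.80 for Mt2, with an adjusted p of 0.843 for both by limma.

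FMT-SP and FMT-CON differed by -0.21 in Mt1 (95% interval -0.85 to 0.43), -0.20 in Mt2 (-0.99 to 0.59), -0.08 in Mt3 (-0.35 to 0.19) and 0.07 in Slc30a1 (-0.40 to 0.55). Exact permutation p-values were 0.457, 0.657, 0.571 and 0.686, and the adjusted p by limma was 1 for each. Without FMT-CON 4, the difference of Slc30a1 was -0.09. For Mt1 and Mt2 it was -0.39 and -0.44 without FMT-SP 4, -0.38 and -0.44 without FMT-CON 2, -0.09 and -0.06 without FMT-CON 4, and -0.07 and -0.02 without FMT-SP 3.

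Across the 12 tests of the 4 genes without a block or covariate, 0 passed an adjusted p under 0.05, 0 had an unadjusted p under 0.05, and 0 had groups that did not overlap. Over all tested genes the shares were also low. By limma's adjusted p, 0% of tested genes passed in each of the 3 comparisons. At an unadjusted p under 0.05 the share was 4.06% (510 genes) for FMT-DSS against FMT-CON, 2.50% (314) for FMT-SP against FMT-DSS and 0.358% (45) for FMT-SP against FMT-CON. Groups did not overlap in 1.75% (220), 1.27% (160) and 0.494% (62) of genes. With 4 genes and shares of this size, 0 is near the background.

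**Figure D2:**
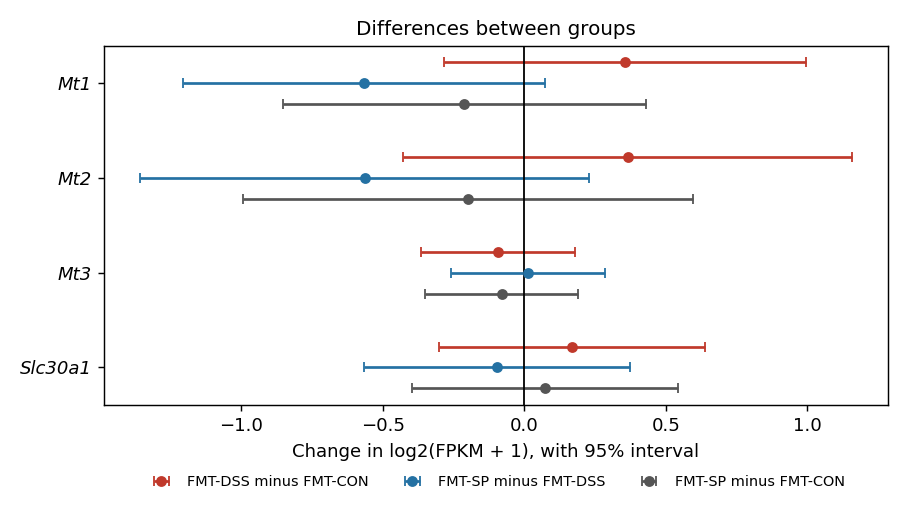
Difference between group means of log2(FPKM + 1) for each gene in the 3 comparisons, with 95% intervals from the limma fit (4 libraries a group; horizontal axis linear, vertical line at 0). All 12 intervals include 0, and those of Mt1 and Mt2 are wider than those of Mt3.

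Setting Mt1 and Mt2 against Mt3 in the same library removes whatever scales the 3 neighbouring genes alike. This was done after the values were seen, so the ratios are a description without a test. The FPKM ratio of Mt1 to Mt3 was 0.779 in FMT-DSS 2 and 0.750 in FMT-DSS 4, and between 0.276 and 0.484 in the other 10 libraries. The ratio of Mt2 to Mt3 was 1.20 in FMT-DSS 2 and 0.955 in FMT-DSS 4, and between 0.339 and 0.682 in the other 10. FMT-CON 4 and FMT-SP 4, the next highest in Mt1 FPKM, had Mt1 to Mt3 ratios of 0.449 and 0.451, inside the range of the other libraries. Their Mt2 to Mt3 ratios were 0.613 and 0.682, and that of FMT-SP 4 was the highest of the 10 libraries other than FMT-DSS 2 and FMT-DSS 4. The ratio of Mt2 to Mt1 was nearly constant, at 1.33 ± 0.128 (SD, n = 12) with a range of 1.15 to 1.53, and it averaged 1.32, 1.33 and 1.33 in FMT-CON, FMT-DSS and FMT-SP.

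Mt1 and Mt2 moved together from library to library. Pearson's r of log2(FPKM + 1) over the 12 libraries was 0.983 and Spearman's rho 0.986, both with a two-sided permutation p of 2e-05, the smallest that the resampling can give, and 0.00012 after adjustment over the 6 pairs of the 4 genes. Without the libraries farthest from the median of Mt1, FMT-DSS 2 and FMT-DSS 4, r was 0.985, and with the group means removed it was 0.984. The transcripts of Mt1 and Mt2 share 0 stretches of 25 bases, so a fragment that holds such a stretch without mismatch can be told apart between them. Mt1 and Mt3 share 3 such stretches of the 1267 in Mt1 transcripts, and 0 of 50 bases.

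Mt3 was not closely tied to its neighbours. Its r was 0.497 with Mt1 (permutation p = 0.107, adjusted 0.161, rho 0.448 with permutation p = 0.150) and 0.542 with Mt2 (permutation p = 0.0741, adjusted 0.148, rho 0.406 with permutation p = 0.195). Without FMT-DSS 2 and FMT-DSS 4 these were 0.686 and 0.736, and over the 9 libraries not numbered 4 they were 0.173 and 0.273. Mt3 and Slc30a1 had r = -0.713 (permutation p = 0.00878, adjusted 0.0263) and rho = -0.769 (permutation p = 0.00534, adjusted 0.0160). The size of that relation depended on the libraries used. Without FMT-CON 4 and FMT-SP 4, r was -0.459. These were picked as the farthest from the median of Mt3, so a weaker r is partly built in. It was -0.19 without the 3 libraries numbered 4, and -0.49 without FMT-DSS 2 as well. With only FMT-DSS 2 and FMT-DSS 4 left out it was -0.82.

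Slc30a1, the gene that shares MTF-1 with Mt1 and Mt2, had correlations near 0 with them over all 12 libraries. Its r was -0.14 with Mt1 (permutation p = 0.669, adjusted 0.776, rho -0.21 with permutation p = 0.516) and -0.096 with Mt2 (permutation p = 0.776, adjusted 0.776, rho -0.13 with permutation p = 0.703). Over the 9 libraries not numbered 4, chosen after the values were seen, r was 0.821 with Mt1 and 0.789 with Mt2, and without FMT-DSS 2 as well it was 0.359 and 0.290. The positive relation among those 9 thus rested on FMT-DSS 2. Without FMT-DSS 2 and FMT-DSS 4, with the other libraries numbered 4 kept, r was -0.59 with Mt1 and -0.56 with Mt2, so the sign depended on the libraries used.

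**Figure D3:**
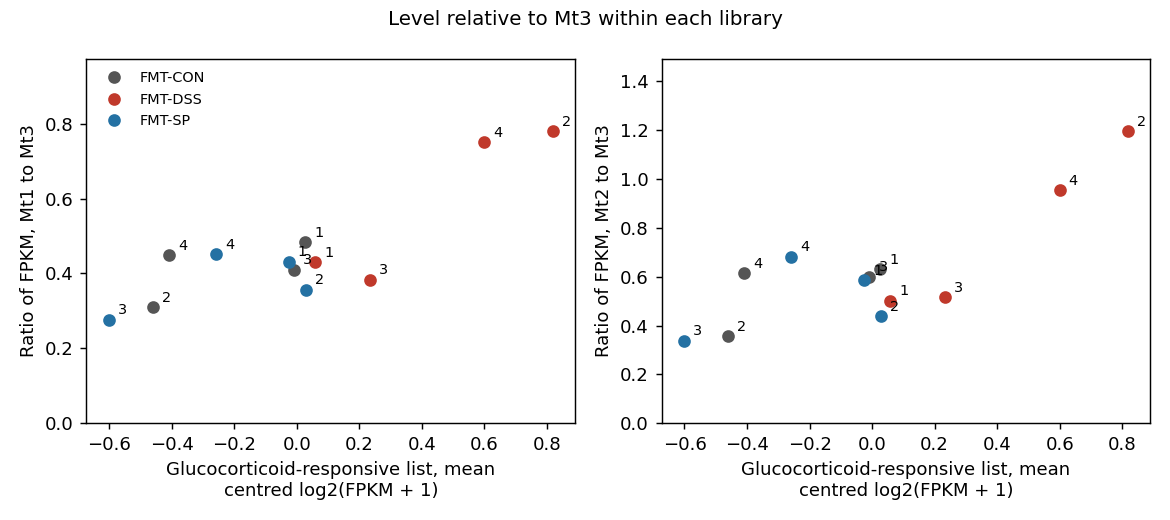
FPKM ratio of Mt1 (left) and Mt2 (right) to Mt3 in each of the 12 libraries (vertical axes, linear from 0) against the mean of 18 glucocorticoid-responsive genes (horizontal axis, log2(FPKM + 1) centred per gene); colours give the group and numbers the library. FMT-DSS 2 and FMT-DSS 4 are highest on both axes, and FMT-CON 4 and FMT-SP 4 have Mt1 to Mt3 ratios of 0.449 and 0.451 at list means of -0.41 and -0.26. Their Mt2 to Mt3 ratios are 0.613 and 0.682.

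The libraries numbered 4 lay to one side of their own group in most of these genes. Library 4 was the highest in Mt1 and Mt3 in 3 of 3 groups and in Mt2 in 2 of 3, and the lowest in Slc30a1 in 3 of 3. Over all 12 libraries only Slc30a1 put the 3 of them below the other 9. Library 4 minus the mean of the other libraries of its group was, in FMT-CON, FMT-DSS and FMT-SP, 0.48, 0.81 and 0.70 for Mt1 on the log2 scale. The same differences were 0.56, 0.74 and 0.95 for Mt2, 0.30, 0.24 and 0.33 for Mt3, and -0.66, -0.63 and -0.40 for Slc30a1. The transcripts of the metallothioneins have 549 (Mt1), 511 (Mt2) and 536 bases (Mt3), and that of Slc30a1 5244. Over all tested genes with a transcript under 1000 bases, the median of the same difference was 0.10, 0.17 and 0.20, and over those from 4000 to under 6000 bases it was -0.23, -0.28 and -0.19. Each of the 4 genes thus differed in the direction of its length class, and by more than the median of that class. The 13 genes of the mitochondrial genome held 24.0% to 29.0% of the FPKM in the same libraries and 15.9% to 20.3% in the remaining 9. The part of transcript length and of mitochondrial RNA in the levels of these genes was not tested beyond the fits named with the alternatives. Without the 3 libraries, the difference of FMT-DSS from FMT-CON was 0.27 for Mt1 and 0.32 for Mt2.

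**Figure D4:**
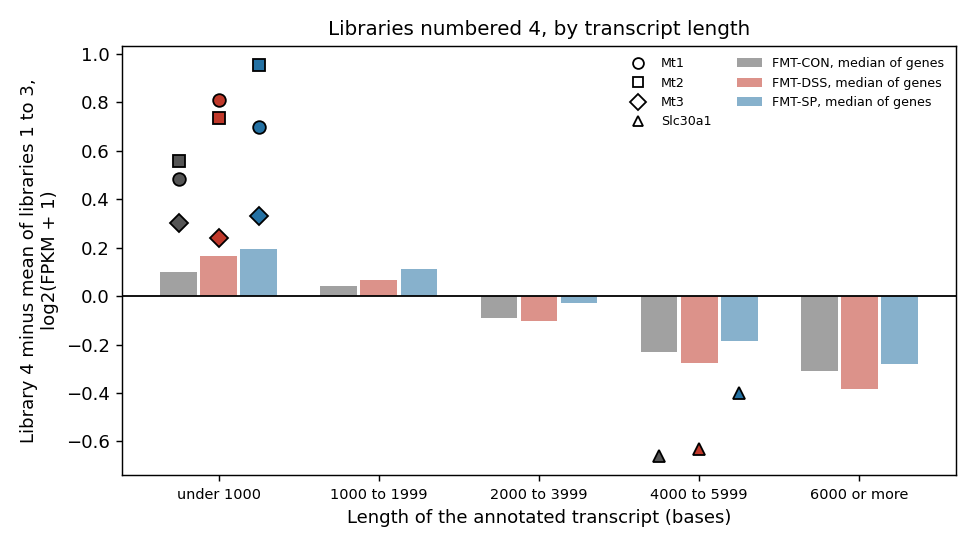
Library 4 minus the mean of libraries 1 to 3 of its group, in log2(FPKM + 1) (vertical axis), by length class of the annotated transcript (horizontal axis). Bars are medians over all tested genes of the class in each group, and symbols are the 4 genes; Mt1, Mt2 and Mt3 lie above their bars and Slc30a1 below its bars in all 3 groups.

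The lists of metal handling genes showed little difference between groups. The list of MTF-1 and its known targets also holds Mt1, Mt2 and Slc30a1, and 12 of its 14 genes were tested. In FMT-DSS, 6 had higher and 6 lower means than in FMT-CON, with a median difference of 0.01 against -0.03 over all tested genes. Mt1, Mt2 and Slc30a1 were among the 6 higher ones. In FMT-SP against FMT-DSS the split was again 6 and 6, with a median of -0.02 against 0.03. There Mt1, Mt2 and Slc30a1 were among the 6 lower ones. Without them the list was mostly lower in the first comparison and mostly higher in the second. So were all tested genes, of which 40.3% and then 58.9% had higher means. Mtf1 itself was at 3.35 ± 0.732, 3.19 ± 0.758 and 3.40 ± 0.476 FPKM in FMT-CON, FMT-DSS and FMT-SP (SD, n = 4 each). Slc40a1, the iron exporter ferroportin, had the smallest unadjusted p of the list: 2.13 ± 0.448 FPKM in FMT-CON, 1.33 ± 0.692 in FMT-DSS and 2.43 ± 0.568 in FMT-SP. Its changes were -0.46 ± 0.20 and 0.59 ± 0.20 (SE), with an adjusted p of 0.966 and 0.999 by limma. Its low values were those of FMT-DSS 2 (0.697 FPKM) and FMT-DSS 4 (0.822), the libraries in which Mt1 and Mt2 were high and microglia markers low, while FMT-DSS 1 (2.14) and FMT-DSS 3 (1.68) lay near the FMT-CON range of 1.68 to 2.69. With both low libraries left out, its changes were -0.10 and 0.23. Gclc, which makes the first step of glutathione synthesis, differed by 0.16 ± 0.08.

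Among 8 tested zinc exporters and vesicular loaders of the Slc30 family, 3 had higher and 5 lower means in FMT-DSS than in FMT-CON, and 6 and 2 in FMT-SP than in FMT-DSS. Slc30a1 itself was among the 3 higher ones and then among the 2 lower ones. Slc30a3, which loads zinc into the synaptic vesicles of hippocampal mossy fibres, was at 22.1 ± 6.59, 20.6 ± 4.05 and 25.4 ± 5.08 FPKM in FMT-CON, FMT-DSS and FMT-SP (SD, n = 4 each). Of 11 tested zinc importers of the Slc39 family, 3 had higher and 8 lower means in FMT-DSS, with a median of -0.06, and 9 had higher and 2 lower means in FMT-SP than in FMT-DSS, with a median of 0.07. Over all tested genes, 40.3% had higher means in FMT-DSS than in FMT-CON and 58.9% in FMT-SP than in FMT-DSS. The counts of the zinc, copper and iron lists are to be read against these shares. The level of Slc39a6 was 14.0 ± 1.90 FPKM in the FMT-DSS libraries and 16.9 ± 2.02 in FMT-SP, a change of 0.25 ± 0.11 with an adjusted p of 0.999 by limma. Leaving out FMT-DSS 2 and FMT-DSS 4 together, the importers with higher means were 6 of 11 in the first comparison and 5 of 11 in the second.

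Of 13 tested genes of copper handling, 4 had higher and 9 lower means in FMT-DSS than in FMT-CON, and 9 and 4 in FMT-SP than in FMT-DSS. Cox11, an assembly factor of cytochrome oxidase, was at 8.23 ± 0.626 FPKM in FMT-CON and 7.06 ± 0.269 in FMT-DSS. Cox17, a copper chaperone of cytochrome oxidase, was at 68.1 ± 8.36 FPKM in FMT-CON and 56.7 ± 8.89 in FMT-DSS. Of 15 tested genes of iron handling, 10 had higher and 5 lower means in FMT-DSS, and 6 were higher without both FMT-DSS 2 and FMT-DSS 4. Fth1, the heavy chain of ferritin, averaged 3348 ± 693.4 FPKM over the FMT-DSS libraries and 2714 ± 305.1 over FMT-SP, a change of -0.29 ± 0.15. By limma's adjusted p, 0 genes of these lists passed.

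Glucocorticoid-responsive genes were the list with the clearest direction, and it had been seen in earlier results of these data, so its count is a description. All 18 tested members had higher means in FMT-DSS than in FMT-CON, with a median of 0.62, where 40.3% of all tested genes had higher means. All 18 had lower means in FMT-SP than in FMT-DSS, with a median of -0.55, where 58.9% of all genes had higher ones, and against FMT-CON the split in FMT-SP was 9 and 9. At an unadjusted p under 0.05 by limma there were 11 in each of the first 2 comparisons, where the shares over all tested genes were 4.06% and 2.50%. By the adjusted p of limma there were 0. Without both FMT-DSS 2 and FMT-DSS 4, 16 of 18 were higher in FMT-DSS than in FMT-CON. The differences of Mt1 and Mt2 were negative there, but these libraries were singled out as the highest in Mt1 and Mt2. Their removal lowers the differences of those genes by construction, so the result cannot be set against that of the list. Fkbp5, a chaperone of the glucocorticoid receptor, was at 18.3 ± 1.05 FPKM in FMT-CON and 29.4 ± 7.87 in FMT-DSS. Klf15, a transcription factor gene of the same list, was at 4.06 ± 0.579, 6.77 ± 1.47 and 4.19 ± 0.884 FPKM in the 3 groups.

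The list mean of these genes (log2(FPKM + 1), centred per gene) was 0.82 in FMT-DSS 2 and 0.60 in FMT-DSS 4, the same libraries that were high in Mt1 and Mt2, and 0.06 and 0.23 in FMT-DSS 1 and FMT-DSS 3. Among the other libraries the order of the list mean and that of Mt1 differed. FMT-CON 4 had a mean of -0.41 with Mt1 at 311.3 FPKM, and FMT-SP 4 a mean of -0.26 with Mt1 at 301.0 FPKM, while FMT-DSS 3 had a mean of 0.23 with Mt1 at 224.3 FPKM. The lowest Mt1 level, in FMT-SP 3, came with the lowest list mean, -0.60. FMT-CON 4 and FMT-SP 4 are libraries numbered 4. There Mt1 lay 0.48 and 0.70 above the mean of the other libraries of its group on the log2 scale. The relation of Mt1 to this list was not tested. The corticosteroid receptor genes Nr3c1 and Nr3c2 and the enzyme gene Hsd11b1 had lower means in FMT-DSS than in FMT-CON, 3 of 3, with a median of -0.11.

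The interleukin-6 and acute-phase list, which shares Cebpb and Cebpd with the glucocorticoid-responsive list, followed FMT-DSS 2 more than FMT-DSS 4. Its mean was 1.36 in FMT-DSS 2 and 0.18 in FMT-DSS 4, and from -0.41 to 0.22 in the other 10 libraries. Lcn2, an iron-trapping acute-phase gene, reached 285.3 FPKM in FMT-DSS 2 and 30.6 in FMT-DSS 4, with 23.6 in FMT-CON 3 and 22.5 in FMT-CON 4. Socs3, the feedback inhibitor of STAT3, reached 7.67 FPKM in FMT-DSS 2 against 1.84 in FMT-DSS 4, and ran from 0.484 to 1.34 in the others. Lcn2 was singled out after its values were seen. Of 15 tested members, 12 had higher and 3 lower means in FMT-DSS than in FMT-CON, with a median of 0.33, and 7 were higher without FMT-DSS 2 and FMT-DSS 4 together. In FMT-SP against FMT-DSS, 2 were higher and 13 lower, with a median of -0.32. None of the 15 passed limma's adjusted p in either comparison. Of 19 genes of the antioxidant factor NRF2 and of glutathione, 9 had higher and 10 lower means in FMT-DSS than in FMT-CON, and 7 and 12 in FMT-SP than in FMT-DSS. Nqo1, a quinone reductase, was at 1.17 ± 0.279 and 1.77 ± 0.479 FPKM in FMT-CON and FMT-DSS, and Gss, glutathione synthetase, at 11.8 ± 2.47 and 8.87 ± 1.33.

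**Figure D5:**
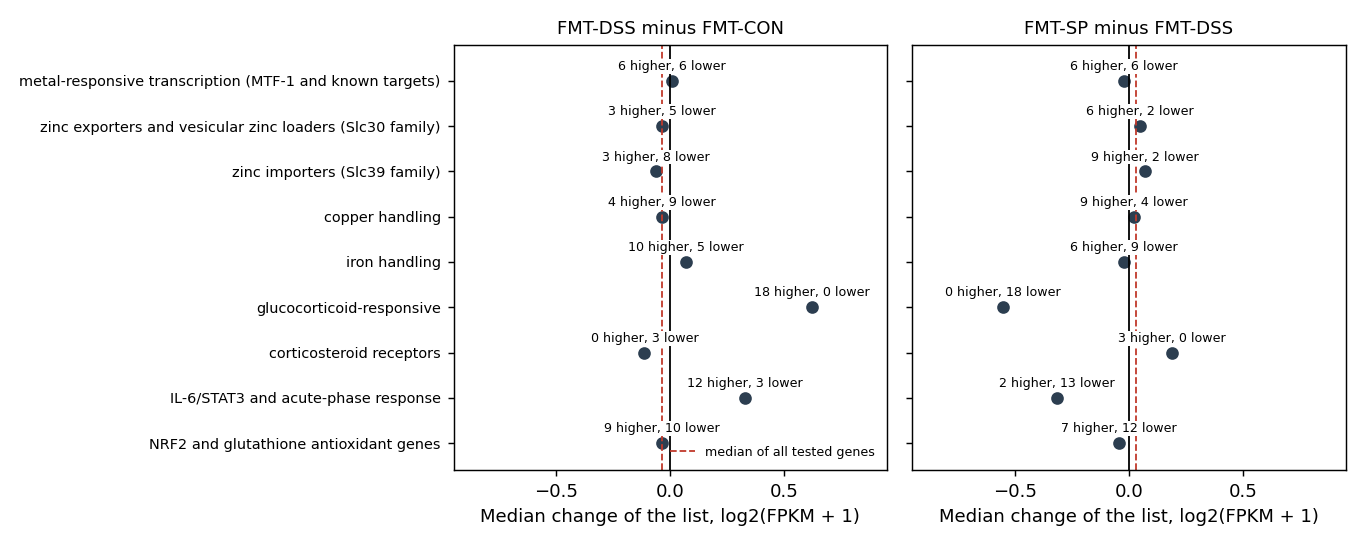
Median difference of each gene list in FMT-DSS against FMT-CON (left) and FMT-SP against FMT-DSS (right), in log2(FPKM + 1), with the number of tested members with higher and lower means; the dashed line is the median of all tested genes. The metal lists lie near that line, while the glucocorticoid-responsive list lies at 0.62 and -0.55.

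Markers of cell types also differed between libraries, and no correlation of them with these genes was computed. In bulk tissue, fewer cells of a type and less RNA per cell cannot be told apart. The 10 markers of hippocampal pyramidal and granule neurons were present in every group, with sums of 235.8 to 388.5 FPKM in FMT-CON, 329.8 to 390.9 in FMT-DSS and 310.7 to 367.5 in FMT-SP. The 12 astrocyte markers, of which 0 were at 0 in all libraries, summed to 745.6 to 968.2, 780.4 to 1023 and 826.9 to 1014 FPKM in the same order. Their mean per library was 0.16 in FMT-DSS 2 and -0.39 in FMT-DSS 4, the 2 libraries with the highest Mt1, and it was also low in FMT-CON 4 (-0.32) and FMT-SP 4 (-0.18). The 5 erythrocyte markers had means of 0.93 and 1.19 in those libraries and 2.25 in FMT-SP 2, where Mt1 was at 175.1 FPKM, and summed to 137.9 to 389.5, 217.6 to 717.2 and 123.8 to 1337 FPKM. The 10 microglia markers averaged -0.76 in FMT-DSS 2, -0.83 in FMT-DSS 4 and from -0.04 to 0.33 in the other 10, with sums of 136.4 to 163.6, 92.9 to 153.2 and 137.4 to 165.5 FPKM. The 12 choroid plexus markers summed to 63.0 to 3934 FPKM in FMT-CON, 1402 to 3192 in FMT-DSS and 55.1 to 4211 in FMT-SP. The 6 pituitary markers summed to 9.67 to 3583 FPKM in FMT-CON, with the top in FMT-CON 3, 2.99 to 7.29 in FMT-DSS and 2.04 to 23.7 in FMT-SP, and without FMT-CON 3 the difference of FMT-DSS from FMT-CON was 0.39 for Mt1 and 0.45 for Mt2. Markers of neighbouring brain regions varied as well. The 8 striatum markers summed to 58.81 to 174.7 FPKM in FMT-CON, 79.74 to 360.1 in FMT-DSS and 52.1 to 117.8 in FMT-SP. The 5 thalamus markers summed to 16.35 to 160.3, 15.67 to 29.85 and 10.65 to 82.78 FPKM in the same order. The part of these cells and regions in the Mt1 and Mt2 levels was not tested beyond the fit with the choroid plexus mean as a covariate.

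The genes whose levels were most like those of each member over the 12 libraries were found among all tested genes by Pearson's r of log2(FPKM + 1), as a description. The libraries share their depth and the split of the libraries numbered 4, which enter every such r. Mt2 was the gene most like Mt1 (r = 0.983), followed by Pithd1 (0.939), Dmwd (0.939), Tgfbr3l (0.933) and Jund (0.930). Mt1 was the most like Mt2, followed by Mtarc2 (0.927), Dmwd (0.917), Tgfbr3l (0.914) and Zkscan2 (0.910). For Mt3 the 5 were Rpl13 (0.982), Uqcr11 (0.974), Rpl9 (0.973), Rps19 (0.972) and Rpl41 (0.971), and 4 of these have annotated transcripts under 1000 bases. For Slc30a1 they were Smg8 (0.973), Ptprr (0.969), Ate1 (0.967), Irs2 (0.964) and Ubxn7 (0.960), with transcripts of 3218 to 10313 bases. Mt1 and Mt2 thus had each other, Dmwd and Tgfbr3l in common, while the lists of Mt3 and Slc30a1 shared no gene with theirs or with each other.

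The libraries were close in depth. Estimated from the size of the steps between low values, they held 31.5 to 37.1 M mapped fragments (M, 1000000). At that depth Mt1 stood for about 3108 to 8979 fragments a library, Mt2 for 3546 to 12203, Mt3 for 8778 to 12975 and Slc30a1 for 579 to 1716, so counting error was small beside the spread between libraries for the metallothioneins.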

How the data were processed

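RNA-seq levels of 12 hippocampal libraries were taken from 1 deposited table of FPKM values, computed by the authors. HISAT2 2.0 and the genome build mm8 are named, without their roles, per the submitters' processing notes; the counter and annotation are not stated in the sources used. The table has no coordinates, so positions were looked up by symbol in GRCm38 (GENCODE vM21) and start windows in RefSeq (GRCm38.p6), where all 4 genes matched. Groups and library numbers come from the sample titles.

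Log2(FPKM + 1) was fitted, for genes averaging 1 FPKM or more, with limma 3.58.1 (R 4.3.3; all 3 groups, variance trend), with Benjamini-Hochberg adjustment over 12559 genes and a threshold of 0.05. A pseudocount of 1 understates the change of low genes such as Slc30a1. The fit was tested on simulated data. Exact permutation tests over the 70 assignments of 8 libraries were run beside it, and correlations used 100000 permutations (scipy 1.17.1).

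Depth was estimated in 4713 genes with 1 annotated transcript, where 37.7% to 39.7% of low values came within 0.05 of whole fragments and chance gives 10%; whole counts were therefore not recovered. Fragments and length classes use the first-numbered GENCODE transcript of a gene, known for 96.5% of tested genes. Mitochondrially encoded genes were found by RefSeq chromosome.

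The 4 genes, the gene lists and the markers were chosen with earlier results of these data known. Besides the 4 genes, the genes named are Mt4, Mtf1 and Slc30a3, members among the 2 of smallest unadjusted p in each list and comparison (the rule allows up to 4; not all are described), and the 5 genes most like each member. Lcn2 falls outside this rule and was chosen after its values were seen. Libraries of the same number deviated together with r = 0.18, 0.24, 0.0075 and 0.72 between FMT-DSS and FMT-CON, 0.36, 0.35, 0.108 and 0.69 between FMT-SP and FMT-DSS, and -0.33, 0.53, -0.45 and 0.84 between FMT-SP and FMT-CON for numbers 1 to 4. By the threshold of 0.1 in every pair, the numbers paired the libraries in the second comparison alone, a hint from the data and not from the labels. Alternatives were a pseudocount of 0.1, 2 other filters, 4 rescalings, array weights, a fit of only the groups compared, a replicate block, 2 covariates, and libraries left out. Ratios to Mt3, counts of list members under the alternatives and correlations over fewer libraries were chosen after seeing the data.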

Additional observations from a re-analysis of the deposited data

Results flagged for a closer look

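Among 29 named genes in 3 groups each (87 groups of 4 libraries), 3 values stood apart from the rest of their group by Dixon's test at the 95% level, which chance gives in about 1 of 20 groups. Fkbp5 was at 16.7 FPKM in FMT-CON 2, below the 18.8 to 18.9 of the other FMT-CON libraries, a narrow group in which a gap of this size is small in FPKM. Socs3 was at 1.34 FPKM in FMT-CON 4, above 0.484 to 0.540 in the others. Gss was at 14.6 FPKM in FMT-SP 3, above 9.13 to 10.03. None of Mt1, Mt2, Mt3 and Slc30a1 was among them: with 2 high libraries of 4 in FMT-DSS, neither stands alone, and such a split cannot be caught by this test. Lcn2, chosen after its values were seen, was not among the genes put to this test. Its FMT-DSS 2 value was 285.3 FPKM, above 0.545 to 30.6 in the other FMT-DSS libraries.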

How the results depend on the processing

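Over 26 alternatives, 296 of 312 differences of the 4 genes kept their direction, and 0 passed the threshold. The counts of all genes past it stayed at 0 in each comparison. For these and the other named genes, part of the count that kept its direction was fixed in advance. The other filters, the fit of only the groups compared, the replicate block and libraries left out of the third group leave a difference unchanged. Without both FMT-DSS 2 and FMT-DSS 4, Mt1 (-0.17) and Mt2 (-0.23) in FMT-DSS against FMT-CON and Mt2 (0.035) in FMT-SP against FMT-DSS reversed, as did Nr3c1 (0.085) and Socs3 (-0.082) in the first comparison and Slc39a10 (-0.0018), Cp (0.15) and Socs3 (0.048) in the second. Array weights reversed Mt2 in FMT-DSS against FMT-CON (-0.0027) and Mt3 (-0.0018), Slc30a1 (0.0068) and Slc30a6 (-0.0079) in FMT-SP against FMT-DSS. In that comparison Mt3 also reversed with median-ratio rescaling (-0.017), the choroid plexus covariate (-0.047) and without the libraries numbered 4 (-0.0094). Leaving out 1 library at a time gave -0.069 to 0.077 for Mt3, -0.25 to 0.096 for Slc30a1, -0.029 to 0.13 for Slc30a6 and -0.48 to 0.044 for Cp in FMT-SP against FMT-DSS, and for Slc30a1 -0.021 to 0.33 in FMT-DSS against FMT-CON and -0.090 to 0.175 in FMT-SP against FMT-CON. The causes were not tested. Of the other named genes 850 of 858 differences kept their direction, and 655 of 702 list counts stayed within 1.5 times. With the replicate block, fitted to all 3 groups, Mt1 differed by 0.36 between FMT-DSS and FMT-CON (adjusted p 0.590 by limma). Between FMT-SP and FMT-DSS it differed by -0.57 (adjusted p 0.672 by limma). The block changed no call by adjusted p. The unadjusted p of Mt1 between FMT-SP and FMT-DSS went from 0.0777 to 0.0395 with the block, and over all alternatives it ran from 0.0254 to 0.870. With 4 libraries a group, the 95% intervals of Mt1 and Mt2 include changes of about 2-fold.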
